A study of Mus musculus with 4 samples.

Results

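The regions described here are 1007 FoxP3 peaks that were found in CD4+ T cells carrying FLAG-FoxP3 alone and in neither of the other peak lists of the study. They were selected on the deposited peak lists themselves. Each is a peak of the FoxP3 alone list that shares no base with a peak of the FoxP3+GATA1 list and none with a peak of the RNA polymerase II (Pol II) list. The FoxP3 alone list holds 5069 peaks, and the 3 lists together hold 31712. Of the FoxP3 alone peaks, 37.4% had no partner with GATA1, 32.5% had no Pol II partner, and 19.9% (Wilson 95% interval 18.8 to 21.0), the regions described here, had neither. These shares are fixed by the selection and are given as a description.

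FoxP3 is a forkhead transcription factor whose expression defines regulatory T cells, which restrain immune responses. It binds DNA through its forkhead domain, works in large complexes with other transcription factors, and is known both to activate and to repress genes. GATA1 is a zinc-finger factor best known from red cell, platelet and mast cell development, and here it was tested as a cofactor of FoxP3. Pol II transcribes protein-coding genes and gathers at their active start sites, so a FoxP3 peak away from Pol II lies off the start sites that this list marks.

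Chromatin immunoprecipitation with sequencing was done on primary conventional CD4+ T cells from lymph nodes of C57BL/6 mice aged 6 to 8 weeks. All cultures were activated with beads against CD3 and CD28 and grown with human IL-2. In the FoxP3 alone group the cells carried FLAG-FoxP3, and in the FoxP3+GATA1 group they carried FLAG-FoxP3 and GATA1. Both were precipitated with an antibody against FLAG, so the introduced FoxP3 was the target. The Pol II culture is labelled as carrying FLAG-FoxP3 and GATA1, but its description names activated CD4 cells and no factor, and which factors it carried is not settled here. No Pol II library is labelled as coming from the FoxP3 alone culture. Being off or far from Pol II therefore refers to this list, not to Pol II measured in the FoxP3 alone culture. Whole cell extract from cells with no introduced factor was the sequencing control. The labels call the factors transduced, while the series' design text calls the cells transfected. The conventional T cells were not regulatory T cells, and FoxP3 was supplied from outside.

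Each of the 4 samples is a single library, so nothing here has a replicate check or a test across samples. The lists hold no read counts, and the depth of each library is unknown. Intervals cover counting error over peaks only, and peaks of 1 library are not independent samples of a condition. A peak that is missing from a list may still carry signal just under that list's threshold, which was not tested. Cells lacking FLAG-FoxP3 were not among the anti-FLAG libraries, so DNA brought down non-specifically cannot be told apart from FoxP3 sites. Positions are in the build of the lists, which is uncertain, as described with the processing. Genes and sequences at these positions were therefore not analysed here.

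The strongest of these sites lay on chromosomes Y and 9. The score is the peak caller's own value, as the authors deposited it, and ranks peaks within the list. The highest, a 406 bp peak at 2361363 to 2361768 on chromosome Y, scored 1307 and ranked 91 among all FoxP3 alone peaks. It was 243843 bases from the nearest FoxP3+GATA1 peak and 290281 from the nearest Pol II peak. A 745 bp peak at 115922074 to 115922818 on chromosome 9 scored 1023 at rank 174. The third, 1230 bp wide at 67678330 to 67679559 on the same chromosome, scored 1022 and was the widest of all 1007. Its nearest Pol II peak was 69871 bases away and its nearest FoxP3+GATA1 peak 70022.

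Below these 3 the scores fell quickly. The fourth, 1019 bp at 104229882 to 104230900 on chromosome 7, scored 827.1. The fifth was the other chromosome Y peak, 385 bp at 442989 to 443373, with 782.7. The sixth scored 740.3, at 132594489 to 132595316 on chromosome 4 (828 bp), and the seventh 720.8, at 109587475 to 109588214 on chromosome 12 (740 bp). The remaining 3 of the top 10 scored 718.3, 711.4 and 700.3. They were a chromosome 2 peak (128793234 to 128794173, 940 bp wide), a chromosome 10 peak (13043614 to 13044265, 652 bp) and a chromosome 19 peak (29393756 to 29394156, 401 bp). All 10 were over 10 kb from any FoxP3+GATA1 peak, and 9 of 10 were over 10 kb from Pol II. The exception was the chromosome 12 site, 5453 bases from a Pol II peak. The 10 were much like the rest in this. Of all 1007 sites, only 10.2% had a FoxP3+GATA1 peak within 10 kb and 19.7% a Pol II peak. The chromosome 2 site had a strong neighbour: the FoxP3+GATA1 peak 11085 bases away scored 1581 in its own list.

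These top sites came in contrasting shapes. Of the 10, 6 were wider than 700 bp and 3 were at most 450 bp wide. The widest sites overlapped with the strongest, since 3 of the 5 widest were among the 10. The other wide ones were 928 bp on chromosome 5 (5693622 to 5694549, score 504.2) and 917 bp on chromosome 7 (17470451 to 17471367, score 672.2).

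As a whole the sites were of middle to low standing in their list. A weak peak may pass the threshold of another list less often, so score was not free of the selection. The scores of the classes and the score deciles are therefore a description, with no test. Their median score was 368.0 (95% order-statistic interval 362.0 to 374.8), with quartiles of 324.0 and 426.2, against a median of 425.5 for the whole list. FoxP3 alone peaks that also lacked a FoxP3+GATA1 partner but met Pol II had a median of 389.4 (381.4 to 400.1). Sites shared with the FoxP3+GATA1 list had 415.8 (405.3 to 428.3) off Pol II and 484.4 (476.1 to 491.2) at Pol II. Only 25.2% of the sites (22.6 to 28.0) scored above the median of the list.

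**Figure D1:**
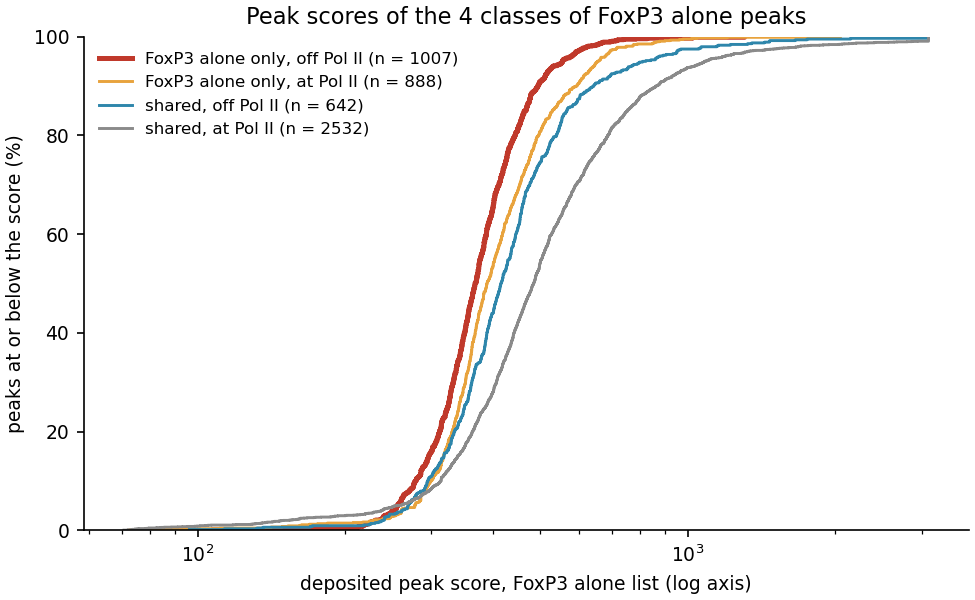
Cumulative share of peaks (vertical axis, percent) at or below each deposited score (horizontal axis, log scale) for the 4 classes of FoxP3 alone peaks. The curve of the 1007 peaks in neither other list rises soonest, with a median of 368.0, and the shared peaks at Pol II rise last, with a median of 484.4.

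The range of scores was also compact. The central 80% of sites lay between 278.8 and 494.3, while shared peaks at Pol II spread from 313.6 to 860.4 by the same measure. Very weak peaks were scarce: 4 of the 98 FoxP3 alone peaks scoring under 200 were among these sites, or 4.08% (1.60 to 10.0). The weakest scored 107.9, at 106492360 to 106492914 on chromosome 14, and the next was 167.8, at 84569158 to 84569731 on chromosome 6. The list as a whole reached down to 70.75, so the lowest-scoring peaks of the list were mostly of other classes. These weakest sites were named after their values were seen.

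When the FoxP3 alone list was cut into score deciles, the sites filled a nearly constant share of the lower part and then thinned out. They made up 30.2%, 33.3%, 31.2% and 30.2% of the 4 lowest deciles, whose intervals overlapped. The share then fell through 23.7%, 18.6%, 14.4%, 9.66% and 6.31% to 1.18% (0.543 to 2.56) in the highest decile, where 6 of 507 peaks belonged to them. In all, 633 of the 1007 sites were in the 4 lowest deciles and 87 in the 3 highest.

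**Figure D2:**
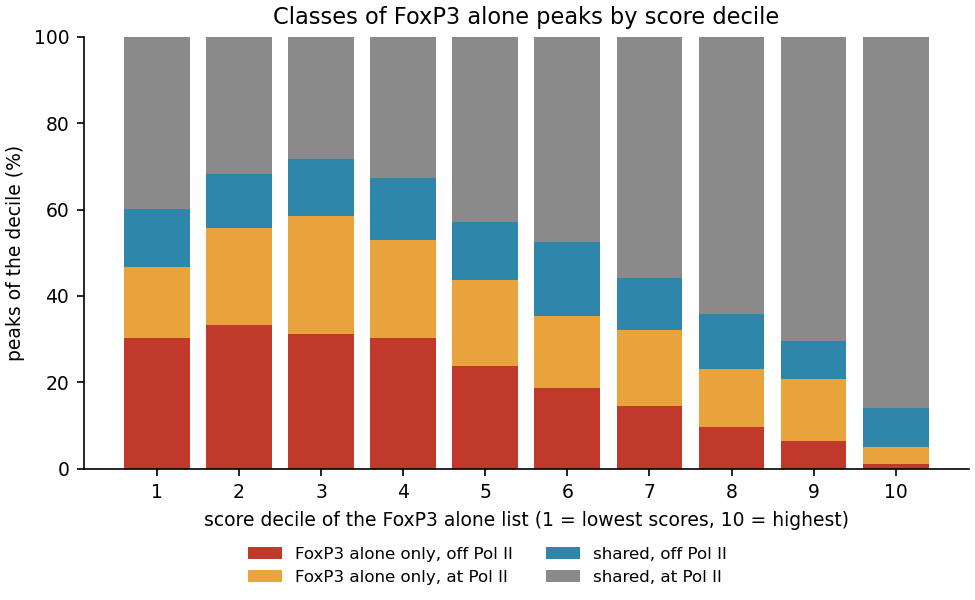
Share of peaks (vertical axis, percent) of each of the 4 classes in each score decile of the FoxP3 alone list (horizontal axis, 10 holds the highest scores). Peaks in neither other list (bottom colour) hold about equal shares of deciles 1 to 4, between 30.2% and 33.3%, and fall to 1.18% in decile 10.

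FoxP3 alone peaks without a FoxP3+GATA1 partner were more often off Pol II than those with one. Of those without, 53.1% were off Pol II, against 20.2% of shared peaks. In the lowest score decile the shares were 64.6% and 25.2%, in the fifth 54.3% and 24.1%, and in the highest 6 of 25 peaks and 46 of 482 were off Pol II. These are the same overlaps that chose the sites, so the shares are a description, with no test. All lists were called over the same extract, and the part that this shared control played was not tested.

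The boundary of the selection was sharp on the GATA1 side. Only 2 of the 1007 sites had a FoxP3+GATA1 peak within 250 bp, and 12 had one within 1 kb (1.19%, 0.683 to 2.07). The closest, 583 bp wide, lay on chromosome 4 (53891437 to 53892019, score 360.9), 61 bases from a FoxP3+GATA1 peak that scored 198.9 in its own list. The next, at 22502554 to 22503134 on chromosome 18 (score 477.9), was 170 bases away. A chromosome X site (11665217 to 11665812) came next with 258 bases. It was followed by a chromosome 19 site (23430985 to 23431481) with 262 and a chromosome 9 site (75273947 to 75274408) with 434.

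Just outside the selection stood the off-Pol II peaks with the smallest overlap. The least overlap was 85 bases, for the 526 bp peak at 107023082 to 107023607 on chromosome 12 (score 288.4). It was followed by 150 bases at 134169899 to 134170659 on chromosome 7 (score 518.0). The other 3 shared 203, 208 and 209 bases, on chromosomes 18, 11 and 10, with scores between 394.5 and 550.4. Few peaks thus lay near the line between overlapping and not overlapping.

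On the Pol II side the boundary was fuller. The Pol II list is also longer, with 17632 peaks against 9011 in the FoxP3+GATA1 list. The part that list length played in these counts was not tested. A Pol II peak lay within 250 bp of 15 sites and within 1 kb of 45 (4.47%, 3.36 to 5.93). The closest was 20 bases away, beside the 577 bp site at 122687819 to 122688395 on chromosome 3 (score 295.7). The next was 40 bases away, beside the 718 bp site at 97489426 to 97490143 on chromosome 11 (score 590.2). Just outside, the FoxP3 alone peaks with the least Pol II overlap and no FoxP3+GATA1 partner shared 11 bases (77297036 to 77297623 on chromosome 11, score 371.3) and 24 bases (28492409 to 28493002 on chromosome 5, score 361.8). These 4 were chosen after their values were seen.

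Of the sites, 52.8% (49.7 to 55.9) had a Pol II peak within 50 kb and 19.7% (17.3 to 22.2) had one within 10 kb. The median site was 43976 bases (37251 to 50574) from the nearest Pol II peak, measured edge to edge, with quartiles of 13386 and 111059. The median was 26598 when centres within 250 bp counted as overlap, and the sites then numbered 1235. For shared FoxP3 alone peaks off Pol II the median was 48911 (41814 to 56846). For the FoxP3+GATA1 peaks that met neither the FoxP3 alone nor the Pol II list, 43.2% of their list or 3891 peaks, it was 53863 (50728 to 57617). Within 1 kb of Pol II were 4.47% of the sites, 2.65% (1.66 to 4.20) of the shared peaks and 2.06% (1.66 to 2.55) of that class of FoxP3+GATA1 peaks.

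The nearest FoxP3+GATA1 peak was at a median of 76431 bases (69355 to 82694). This distance depended on the length of the other list: against its 5069 highest-scoring peaks it was 139945. The FoxP3 alone peaks at Pol II that lacked such a partner had a median of 65740 (58781 to 74938). A peak of either list lay within 10 kb of 233 sites, or 23.1% (20.6 to 25.8). More than 50 kb from both were 386 sites, or 38.3% (35.4 to 41.4). The nearest FoxP3+GATA1 peak was itself in the FoxP3 alone list for 35.3% of sites (32.4 to 38.3), close to the 35.2% of that whole list, and its median score was 197.7 against 195.2 for the whole. For 227 sites, or 22.5%, the nearest FoxP3+GATA1 peak and the nearest Pol II peak overlapped each other, so both distances ran to 1 place.

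**Figure D3:**
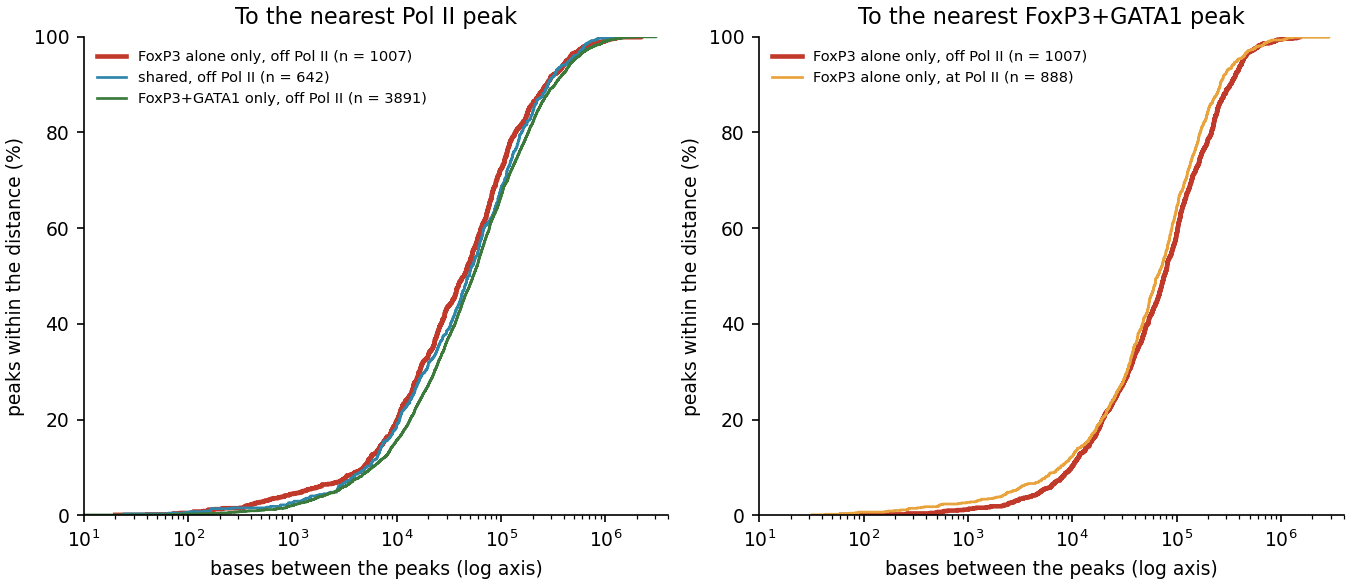
Cumulative share of peaks (vertical axes, percent) by bases to the nearest Pol II peak (left) and the nearest FoxP3+GATA1 peak (right), both on log axes. Peaks in neither other list run close to the comparison classes, with medians of 43976 and 76431 bases, and few lie under 1 kb.

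Some sites were extremely remote from Pol II. The farthest was the 385 bp chromosome Y peak named above, at 2208676 bases. It was followed by 14465546 to 14466103 on chromosome 11 (1347437 bases, score 341.1), 121236637 to 121237025 on chromosome X (1284463 bases, score 371.0) and 59965930 to 59966524 on the same chromosome (1252213 bases, score 373.5). The fifth, at 68435498 to 68436076 on chromosome 7 (score 406.9), was 1172381 bases from Pol II but 17143 from a FoxP3+GATA1 peak. The median score was 351.9 (340.5 to 364.6) for the 153 sites between 1 and 10 kb from Pol II and 385.6 (366.7 to 401.0) for the 278 sites beyond 100 kb. The 45 sites within 1 kb had 377.8 (336.5 to 416.1). Narrow peaks of at most 450 bp were 1 of those 45 and 55 of the 278, or 19.8% (15.5 to 24.9).

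The widths of the sites had 2 modes, with a drop in number at 600 bp. The median was 558 bp (553 to 564), with quartiles of 493.5 and 594.5 and a range from 371 to 1230. In bins of 25 bp, the fullest held 203 sites between 575 and 599 bp, or 20.2% (17.8 to 22.7), and the next bin up held 45, or 4.47%. A smaller mode of 87 sites lay between 375 and 399 bp, with 28 in the bin above it. Other classes had the same modes in other proportions: between 375 and 399 bp lay 8.64% of the sites (7.06 to 10.5) and 19.9% (18.4 to 21.5) of shared peaks at Pol II. Of the latter, 9.76% lay between 575 and 599 bp.

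Wide peaks were scarce among the sites. Over 700 bp were 6.45% (5.10 to 8.14), against 17.0% (14.7 to 19.6) of the FoxP3 alone only peaks at Pol II, 12.8% (10.4 to 15.6) of shared peaks off Pol II and 18.8% (17.4 to 20.4) of shared peaks at Pol II. At most 450 bp wide were 16.0% (13.9 to 18.4), 10.7%, 25.9% and 29.6%, in the same order. A wide peak has more chance to share a base with another list, so width was not free of the selection. In the 3 highest score deciles 35.6% of the sites (26.4 to 46.1, 31 of 87) were narrow and 28.7% (20.3 to 39.0) over 700 bp, close to the 36.7% and 27.9% of shared peaks. The peaks at Pol II without a FoxP3+GATA1 partner had 13.1% (8.75 to 19.2) and 55.0% (47.3 to 62.5) there. In the 4 lowest deciles the sites were narrow in 7.27% of cases (5.49 to 9.56), against 5.53% (3.77 to 8.04) of the other FoxP3 alone only peaks and 13.3% (11.2 to 15.6) of shared peaks. Over 700 bp there were 3.32% (2.18 to 5.02), 6.19% (4.32 to 8.81) and 10.6% (8.80 to 12.7), in the same order. In deciles 5 to 7 the shares over 700 bp were 6.62% (4.28 to 10.1), 12.7% (9.26 to 17.1) and 10.9% (9.05 to 13.0). The narrow shares in deciles 5 to 7 were 29.3%, 17.8% and 33.6%.

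Score and width were related in a curve, not a line. Sites of at most 400 bp had a median score of 461.2 (429.3 to 475.6), those of 551 to 600 bp 333.1 (328.0 to 339.2) and those over 800 bp 557.4 (504.2 to 647.3). All other FoxP3 alone peaks followed the same curve at higher values, 513.7, 363.5 and 697.5. Spearman's correlation of score and width across the 1007 sites was -0.18, a value that does not describe such a curve. It is across peaks of 1 library, which share its depth.

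**Figure D4:**
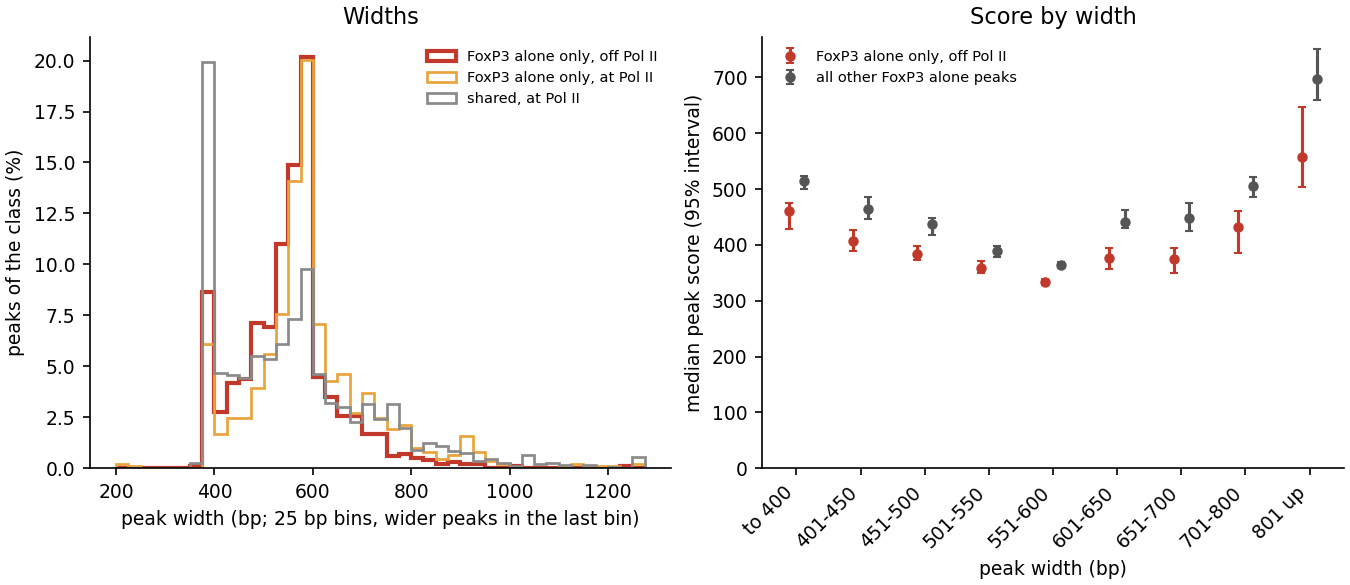
Left, share of peaks (vertical axis, percent) by width in bins of 25 bp for 3 classes of FoxP3 alone peaks; right, median score with its 95% interval (vertical axis) by width class for the peaks in neither other list and for all other FoxP3 alone peaks. The left panel shows a mode at 375 to 399 bp and a drop at 600 bp, and the right panel the lowest medians at 551 to 600 bp, 333.1 and 363.5.

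The sites were mostly scattered singly. The median distance to the next of them was 708237 bases (625306 to 773956), and 72 of 1007, or 7.15% (5.72 to 8.91), had another within 50 kb. With scores of 100 or more in all lists the number was 119, and with a minimum score of 300 in the FoxP3 alone list it was 38. Joined across gaps of up to 50 kb, 935 stood alone, 33 groups had 2 and 2 groups had 3. The nearest FoxP3 alone peak of any class was at a median of 126714 bases (116087 to 142909), against 126125 for the list as a whole. It was another of the sites in 19.6% of cases (17.2 to 22.1), beside the 19.9% of the list that they make up. A FoxP3 alone peak of any class lay within 50 kb of 26.2% of the sites (23.6 to 29.0). The same held for 29.8% of the FoxP3 alone only peaks at Pol II, 22.9% of shared peaks off Pol II and 25.1% at Pol II. The 7.15% was not set against other subsets of like size.

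The largest groups were of modest score. On chromosome 6, 84051620 to 84102016 held 3 sites with scores of 245.5, 252.6 and 358.7, and 2 FoxP3+GATA1 peaks lay between them. The second of these sites was 1131 bases from one. On chromosome X, 139400671 to 139423823 held 3 sites with scores of 276.8, 256.3 and 263.0, and no peak of another list within the span. The nearest Pol II peak to the first of them was 112766 bases away. The next groups in order, of 2 sites each, were 130417111 to 130451166 on chromosome 1 (scores 312.5 to 415.2), 80174952 to 80178214 on chromosome 10 (256.3 to 283.9) and 57342460 to 57378339 on chromosome 11 (223.4 to 301.8). None of these 3 held a peak of the other lists. Of all 35 groups, 24 held none. Their spans were short, with a median of 31.2 kb over all groups, and the sites at their ends overlap no other list by rule. Spans of like length elsewhere were not counted, so 24 of 35 is a description only.

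A pair on chromosome X differed from the rest and is named after its values were seen. One member ran from 7150691 to 7151565 and scored 306.8, and the other ran from 7175761 to 7176355 and scored 460.9. They stood on either side of 3 other FoxP3 alone peaks, of which the highest reached 3100. Between them also lay 3 FoxP3+GATA1 and 4 Pol II peaks. The sites themselves were 11391 and 5249 bases from the nearest FoxP3+GATA1 peak. Whether this region holds sequence of the introduced construct was not tested.

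Across chromosomes the sites followed the FoxP3 alone list, with chromosome Y apart. Leaving out Y, they made up between 14.7% of FoxP3 alone peaks on chromosome 10 (10.9 to 19.7) and 24.6% on chromosome X (18.3 to 32.3). On 19 of 20 chromosomes the interval held the 19.9% of the whole list, and chromosome 10 was the exception. The values are not adjusted for the number of chromosomes compared. Per 10 Mb of the span covered by the lists there were 3.92 sites in all. Without Y the values ran from 2.15 on chromosome X to 4.85 on chromosome 4. Chromosome Y had 8.59, from 2 sites over a span of 2.33 Mb. Chromosome X held 35 sites, or 3.48% of them (2.51 to 4.80), against 2.63% (2.18 to 3.17) of the other FoxP3 alone peaks.

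Both FoxP3 alone peaks on chromosome Y were among the sites, and both were in the top 10 by score. They were narrow, at 385 and 406 bp, and 1917989 bases apart. The FoxP3+GATA1 list held 7 peaks on this chromosome and the Pol II list 4, none of which overlapped them. With 2 peaks, the interval of the share runs from 34.2% to 100%.

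**Figure D5:**
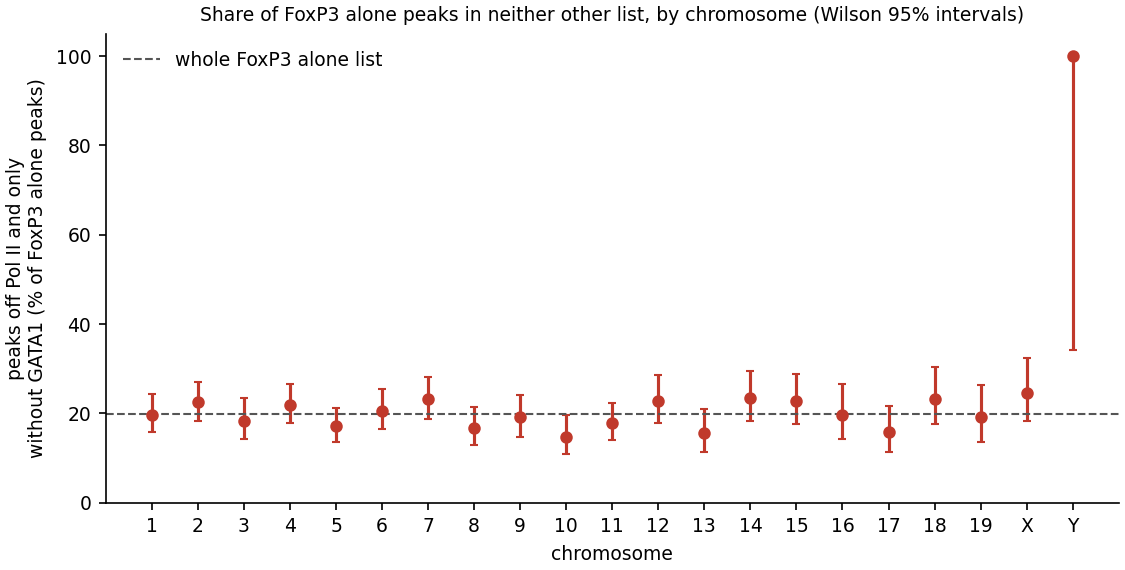
Share of FoxP3 alone peaks in neither other list (vertical axis, percent) for each chromosome (horizontal axis), with Wilson 95% intervals; the dashed line marks the 19.9% of the whole list. Chromosomes other than Y lie between 14.7% and 24.6%, and both peaks of chromosome Y are in the class.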

How the data were processed

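For each precipitated library the authors deposited its own list of peaks, without header, in which every peak has a score. The submitters' processing notes name MACS 1.4.0rc2, Bowtie and FastQC and the build mm8, with no roles or settings. The sources used here do not give the Bowtie version. By the names of the lists, each was called over the same extract lane. MACS usually writes −log10 of the p-value, times 10, in this column. The value depends on depth, so scores were compared within a list. The exceptions are recomputations with scores of 100 or more in all lists and with the Pol II list held to the FoxP3 lists' lowest score. The lists did not reach down to the same score. The lowest was 70.75 in the FoxP3 alone list, 70.56 in the FoxP3+GATA1 list and 50.02 in the Pol II list. Both FoxP3 lists carry in their names a suffix with the form of a p-value, which the Pol II list lacks. Whether it is the calling threshold is not stated in the sources used here. With the Pol II list held to the lowest score of the FoxP3 lists, the sites numbered 1032. The furthest peak on chromosome 7 ended at 152430305, beyond the generally known length of that chromosome in mm8, so the build is uncertain. The gene and promoter tables at hand are of GRCm38.p6. They were not used, and the planned counts of genes and motifs were not run.

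Positions count from 1, and peaks sharing at least 1 base were counted as overlapping. Distances are the bases between peak edges. Python 3.11.15, numpy 2.4.6, pandas 2.3.3 and scipy 1.17.1 were used. The count of 1007 was checked with bedtools 2.31.1, and the code was also tested on simulated data with planted overlaps. Shares carry Wilson intervals and medians order-statistic intervals, all at 95%. Named regions are the 10 highest-scoring sites, the 5 widest, the 5 nearest to a FoxP3+GATA1 peak and the 5 just outside, the 5 farthest from Pol II, the 5 largest groups across gaps of 50 kb and every site on chromosome Y. The members, these rules and the 11 alternatives were chosen with earlier results of these data known.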

Additional observations from a re-analysis of the deposited data

How the results depend on the processing

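No paired analysis was possible because there was a single library per group. The 7 results recomputed were the number of sites, their median score and width, both median distances, the number with a neighbour and the chromosome X share. They were recomputed under 11 alternatives and, added after seeing the data, with the FoxP3+GATA1 list reduced to its 5069 highest-scoring peaks. The number of sites stayed within 1.5 times 1007, between 846 and 1244, and the chromosome X share between 2.97% and 3.66%. That share has no value without chromosomes X and Y. In all, 72 of 83 values lay within the interval of the reported one or, for counts, within 1.5 times it. The alternatives reuse the same lists and mostly the same sites, so this count is no check across libraries. Merging peaks of a list across gaps of up to 500 bp changed none of the 7 values. With centres within 250 bp taken as overlap, the median distance was 68175 bases to a FoxP3+GATA1 peak and 26598 to Pol II, and the median width 567 bp. With scores of 100 or more in all lists, the median distance to Pol II was 59481 bases and 119 sites had another within 50 kb. With a minimum score of 300 in the FoxP3 alone list, the median score was 383.9, the median width 551 bp and the number with a neighbour 38. Without peaks of 450 bp or less, the medians were 359.3 and 571 bp. With the reduced list, the distance to a FoxP3+GATA1 peak was 139945 bases. By its definition, a minimum score in the FoxP3 alone list cannot lower the median score or raise the number with a neighbour. The cause of the other moves was not tested. Comparisons between classes, score deciles, width modes and groups were not recomputed.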
